A study of Zea mays with 229 samples.

Results

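Orphan42 (gene Zm00001d028752) was 1 of 23 maize regulators introduced on a plasmid into protoplasts (cells whose wall has been digested away) from seedling leaves, and its target list is described here. The members are the distinct genes that the authors' deposited table of edges gives under that regulator, 4002 of the 19787 genes listed for any regulator. The name matched the identifier in the titles of the 6 libraries with the Orphan42 plasmid, 3 labelled plusN and 3 minusN, all of batch 20210524. The labels do not spell out N; the series is about nitrogen use efficiency. The empty vector control of that batch had 8 libraries, 4 plusN and 4 minusN. Both groups were transient transfections of B73 protoplasts from etiolated second leaves, used the p1107 plasmid system and were sorted for red fluorescence, so neither is a stable line. The promoter that drives Orphan42 is not stated in the labels. With no expression values, the labelled tissue could not be checked against leaf markers. The batch also held 6 libraries of EREB115 and 6 of G2 (Golden2), whose lists may rest on the same empty vector libraries. A list gives identifiers alone, with no direction, size, N condition or p-value, and whether a target's transcript went up or down cannot be read from it. No error can be given for an edge, and no test was run, so all comparisons below are descriptions.

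The TARGET assay introduces a transcription factor, a protein that binds DNA and controls how often genes are read, into protoplasts and measures which messenger RNAs change. Whether a listed gene is bound by the factor or lies further downstream cannot be read from the list. In maize catalogues of transcription factors, Orphan is a class for regulatory proteins that were not placed in a named family. The sources used here do not say what Orphan42 does in the leaf. The factors it was compared with include NAC and WRKY factors, known in plants for roles in senescence and stress, MYB and bHLH factors, which control among other things secondary metabolism, and G2, which drives chloroplast development. The deposited identifiers belong to the B73 RefGen_v4 annotation, and 1 of the 4002 targets, a microRNA gene, matched the gene table at hand, which belongs to another assembly. The other 4001 targets carry Zm00001d identifiers without names or descriptions, so pathways could not be counted.

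The gene of Orphan42 itself stood in its own list, in row 3 of a stretch of 2564 consecutive rows in the authors' deposited table. Reads from the plasmid may be assigned to the native gene, so the edge says nothing of self-regulation. It is at most a weak check of the label, because most other lists held the gene too. The Orphan42 gene was also listed for 15 of the 22 other regulators (68.2%), where 37.5% of all ordered pairs of different regulators were listed. Other regulator genes were listed about as often: HB6 for 16 other regulators, NAC5 for 15, GLK44 for 14, and Zm00001d032024, MYB81 and EREB115 for 13 each. Frequent listing was therefore not particular to the Orphan42 gene. In the lists of bZIP9 and HB6 it stood near the start of a stretch, in row 29 of 4681 and row 67 of 5066. It stood in row 70 of 3307 for bHLH92, row 51 of 1044 for MYB56 and row 172 of 4668 for WRKY36. Over the 15 lists its row lay at 0.62% to 61.0% of the rows of its stretch, with a median of 6.27%. The G2 and MYB81 lists held it furthest down, in row 1039 of 2317 and row 1745 of 2860. The submitters do not say what sets the row order. Among the 15 is the unnamed regulator Zm00001d003176, where the Orphan42 gene stood in a stretch of 1335 rows whose genes are all in the MYB56 list too, so these 2 listings may not be separate. The Orphan42 gene was absent from the lists of EREB115, bHLH47, GLK44, MYB21, NAC66, NAC109 and Zm00001d033859.

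In the outward direction, Orphan42 listed 7 of the 22 other regulator genes (31.8%), against the same 37.5% over all ordered pairs. That was no more than the general share among regulators, though above the 20.2% of all listed genes that Orphan42 listed. The 23 regulators listed a median of 8 others each. By families of the plasmid names, 3 of 4 NAC genes were targets (NAC61, NAC5 and NAC66), 2 of 5 MYB genes (MYB34 and MYB81), and 0 of 2 each for WRKY, bHLH and the Golden2-like pair GLK44 and G2. The families also differed in how many regulators other than their own listed them. NAC5 had 15, NAC61 12, NAC109 10 and NAC66 5. WRKY36 and bHLH92 had 1 each, WRKY107 3, G2 6, bHLH47 7 and GLK44 14. The family counts are therefore no sign of a preference particular to Orphan42. The remaining 2 regulator genes among the targets were bZIP9, named for a basic leucine zipper factor, and HB6, named for a homeobox factor. HB6 and bZIP9 stood close together in the longer stretch, in rows 401 and 407 of 2564. NAC5 was in row 740 and NAC61 in row 890 of the same stretch. NAC66 (row 2041) and MYB81 (row 2085) came late in it. MYB34 alone was in the shorter stretch, in row 1307 of 1438, near its end. For 6 of the 7 genes the listing was mutual, and NAC66 was the exception, since its list lacked Orphan42. A further 9 regulators listed Orphan42 without being listed by it, and 6 had no edge with it in either direction. The lists of the 6 regulators with a mutual edge had 510 genes in common, of which Orphan42 listed 258 (50.6%), against 20.2% of all listed genes. Such genes have at least 6 regulators by construction, and how many regulators the 510 genes had in total was not counted. Of all genes with 5 to 7 regulators Orphan42 listed 29.4%, and of those with 8 to 11 it listed 40.1%. For 12 to 15 regulators the share was 51.3%, and for 16 to 19 it was 64.5%.

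**Figure D1:**
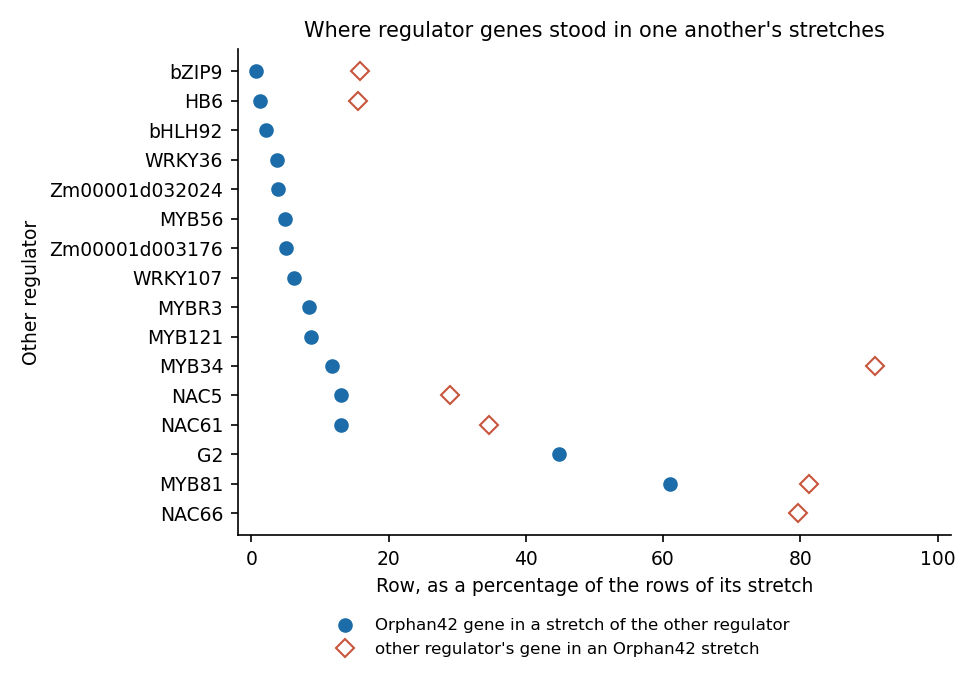
Rows of regulator genes as a percentage of the rows of the stretch they stand in (x axis), for the 16 regulators with an edge to or from Orphan42 (y axis). Filled circles are the Orphan42 gene in the other regulator's stretch, with a median of 6.27%, and open diamonds are the other regulator's gene in an Orphan42 stretch, from 15.6% to 90.9%.

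How far the Orphan42 list coincided with the others was described by shared genes, as a share of each list. The list most often shared was that of bZIP9, with 2325 genes, 58.1% of the Orphan42 targets and 28.8% of the bZIP9 list. Since bZIP9 listed 40.8% of all listed genes, that is 1.42 times its overall share. In the 2 lists closest in length to that of Orphan42, bZIP9 covered more, 62.2% of MYBR3 and 63.3% of bHLH92. A raised share was therefore not particular to Orphan42. NAC61, which listed 41.9% of all listed genes, shared 2099, or 52.4% of the Orphan42 targets and 25.3% of its own. Its ratio of 1.25 was the lowest of the 22, so the longest list was also the one least raised among Orphan42 targets. WRKY107 shared 1912 genes, 47.8% of the Orphan42 list against 32.3% of all listed genes. HB6 shared 1879 (47.0% against 33.7%). NAC5 shared 1872 (46.8% against 30.6%), and MYB121 shared 1812 (45.3% against 32.8%). For these long lists the share among Orphan42 targets thus exceeded the overall share by 1.25 to 1.53 times.

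Lists nearer in length to that of Orphan42 shared between 33.5% and 38.6% of its targets. MYB34 shared 1544 genes (38.6% of the Orphan42 list, where MYB34 listed 22.2% of all listed genes). The unnamed regulator Zm00001d032024 shared 1504 (37.6% against 23.7%), and WRKY36 shared 1495 (37.4% against 23.6%). MYBR3 shared 1459 genes (36.5% against 21.5%). With bHLH92 there were 1340 shared genes (33.5% against 18.6%), which was 36.5% of the bHLH92 list. Ratios to the overall share lay from 1.58 to 1.80 in this group, above those of the 6 longest lists.

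Among the shorter lists, bHLH47 shared 1085 genes (27.1% of the Orphan42 list) and MYB81 shared 1074 (26.8%), where each of them listed 14.5% of all listed genes. GLK44 shared 873 (21.8% against 11.2%), and MYB21 shared 807 (20.2% against 8.96%). Seen from its own side, MYB21 had 45.5% of its 1772 targets in the Orphan42 list, the highest such share outside the batch, where Orphan42 listed 20.2% of all listed genes. MYB56 shared 758 genes (18.9% against 10.4%) and Zm00001d003176 shared 718 (17.9% against 9.45%). NAC66 shared 563 (14.1% against 7.73%). The shortest lists, Zm00001d033859 and NAC109, shared 294 (7.35% against 3.35%) and 249 (6.22% against 3.33%). Shorter lists had the higher ratios, up to 2.25 for MYB21 outside the batch, and also held the more often listed genes, with a median of 7 to 12 other regulators per target from bHLH47 down.

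The 2 regulators of the Orphan42 batch are given apart, because their comparisons may share empty vector libraries with it. EREB115 listed 13.9% of all listed genes and 33.4% of the Orphan42 targets (1335 genes, 48.7% of the EREB115 list). G2 listed 28.1% and 38.0% (1522 genes, 27.3% of the G2 list). G2 also had 8 libraries in batch 20210523, which has its own 8 empty vector libraries. What is common to these lists and what comes from common controls cannot be told apart.

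**Figure D2:**
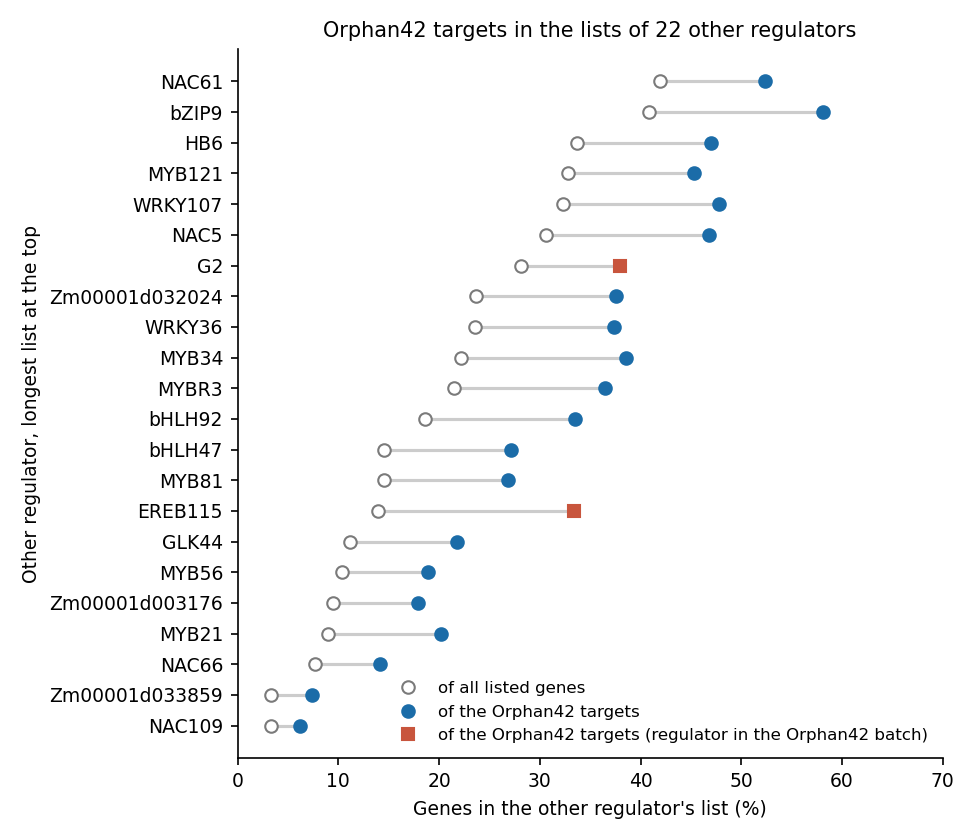
Percentage of genes that each of the 22 other regulators listed (x axis), among all 19787 listed genes (open circles) and among the 4002 Orphan42 targets (filled circles, or squares for EREB115 and G2 of the Orphan42 batch). Every list covered a larger share of the Orphan42 targets than of all listed genes, from 6.22% against 3.33% for NAC109 to 58.1% against 40.8% for bZIP9.

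Targets particular to 1 list were counted next. Of the Orphan42 targets in the authors' deposited table, 163 (4.07%) were listed for no other regulator. Over all listed genes, each counted once, 26.1% had exactly 1 regulator. The 2 shares are on different scales, since an often listed gene recurs in many lists, and every list lay below 26.1%. The Orphan42 share of 4.07% ranked 9 of 23, in a range from 0.0% for NAC109 to 11.5% for NAC61. The median over lists was 2.66%. Of the lists nearest in length, bHLH92 had 2.50% (92 genes), MYBR3 1.76% (75 genes) and MYB34 1.12% (49 genes). The list of Zm00001d032024, somewhat longer with 4696 genes, had 7.58%. Put another way, Orphan42 contributed 4.33% of the 92485 distinct edges and 3.15% of the 5167 genes with 1 regulator. Without the lists of EREB115 and G2 the targets of Orphan42 alone numbered 214. Leaving out 1 other list at a time moved the number most for bZIP9, to 218, and did not move it for GLK44, NAC109, Zm00001d003176 or Zm00001d033859.

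A further 279 targets (6.97%) had exactly 1 other regulator. The partner was bZIP9 for 55 of them, NAC61 for 36, EREB115 for 23, G2 for 22 and WRKY107 for 21. HB6 and MYB121 were the partner for 20 each. The smaller list of bHLH47 accounted for 13, while bHLH92, with a longer list, accounted for 1. GLK44, NAC109, Zm00001d003176 and Zm00001d033859 shared 0 genes with Orphan42 alone. Other lists were then added in turn, each chosen because it covered the most Orphan42 targets not yet covered. The first, bZIP9 and NAC61, together covered 75.8% of the Orphan42 targets, against 62.5% of all listed genes. They covered 77.9% of the MYBR3 list and 83.8% of the bHLH92 list. With NAC5 and MYB121 added they covered 86.0%, against 77.9% of all listed genes, 88.7% of the MYBR3 list and 92.4% of the bHLH92 list. Coverage by these lists was thus lower for Orphan42 than for MYBR3 or bHLH92, although the lists were chosen for Orphan42. However, NAC61 and NAC5 were of the bHLH92 batch, 20210517, and may share empty vector libraries with bHLH92. For bZIP9 alone, of a batch of none of the 3, coverage was 58.1% for Orphan42, 62.2% for MYBR3 and 63.3% for bHLH92.

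Over all 4002 targets, the median number of other regulators was 6, with percentiles 25 and 75 at 3 and 11. The medians of the other lists ran from 5 to 12. The 7 longest lists, from NAC61 to G2, had medians of 5 or 6. Among the lists nearer in length, WRKY36, MYB34, MYBR3 and bHLH92 had a median of 8, while Zm00001d032024 had 6, the same as Orphan42. The median of Orphan42 therefore lay below that of 4 of these 5 lists.

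The composition was compared with MYBR3 (4260 targets) and bHLH92 (3674), the lists closest in length. Of the genes with 1 regulator, Orphan42 listed 3.15%, MYBR3 1.45% and bHLH92 1.78%. For genes of 2 regulators the shares were 8.62%, 5.31% and 5.28%, and for genes of 3 to 4 regulators 16.6%, 12.7% and 11.8%. At 5 to 7 regulators they were 29.4%, 28.7% and 23.7%, and at 8 to 11 regulators 40.1%, 50.3% and 39.0%. Among more often listed genes Orphan42 was the lowest of the 3. Of 1322 genes with 12 to 15 regulators, Orphan42 listed 51.3%, MYBR3 72.1% and bHLH92 62.9%. Of 459 genes with 16 to 19 regulators, Orphan42 listed 64.5%, MYBR3 86.5% and bHLH92 83.4%. The Orphan42 list therefore held more genes of 1 to 4 regulators, and fewer of 12 or more, than either.

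Because MYBR3 and bHLH92 have batch partners of their own, the count was repeated over the 10 lists of no batch known to be shared with any of the 3 regulators. This choice was made after the values above had been seen. Of 887 genes in 7 to 10 of these lists, Orphan42 listed 49.6%, MYBR3 71.6% and bHLH92 65.5%. Of 4760 genes in none of them, Orphan42 listed 11.3%, MYBR3 8.24% and bHLH92 7.86%. Orphan42 was thus the highest of the 3 at the low end and the lowest at the high end, as before, while MYBR3 and bHLH92 changed places at the low end. Taken list by list, Orphan42 held a median of 36.8% of the 10 lists (27.9% to 45.5%), MYBR3 45.4% (32.8% to 52.8%) and bHLH92 39.3% (28.8% to 45.0%). MYBR3 held a larger share than Orphan42 of all 10 lists. Relative to bHLH92, Orphan42 held a larger share of MYB21 (45.5% against 41.4%) and bHLH47 (37.8% against 36.2%), and a smaller one, or for bZIP9 nearly the same number of genes (2325 against 2326), of the others. Neither depth nor thresholds are known for these lists.

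**Figure D3:**
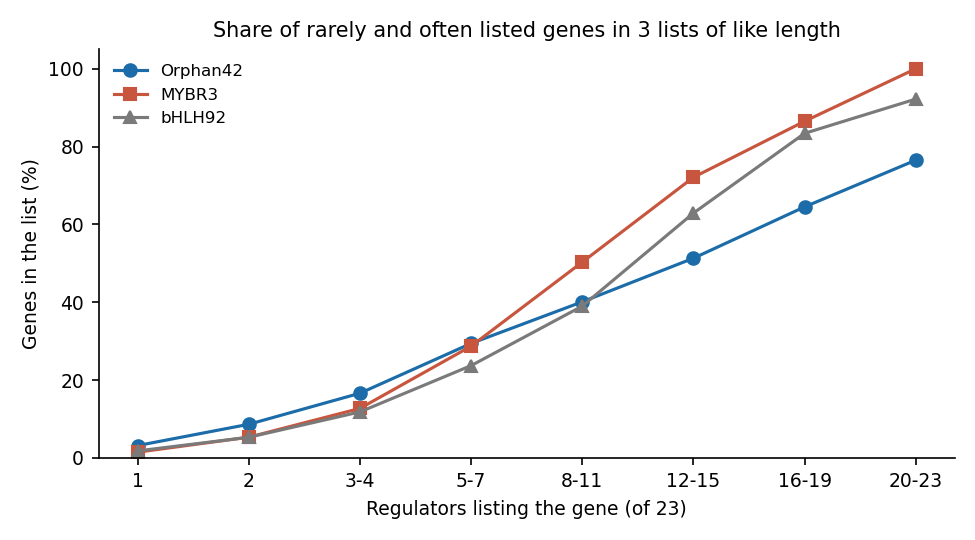
Percentage of genes in the lists of Orphan42, MYBR3 and bHLH92 (y axis), for genes grouped by how many of the 23 regulators listed them (x axis). Orphan42 lies above the other 2 lists for genes of 1 to 4 regulators and below both from 12 regulators on, with 51.3% against 72.1% and 62.9% at 12 to 15.

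The genes with the most regulators were then looked at singly. Of 51 genes listed for at least 20 regulators, 39 (76.5%) were Orphan42 targets, 33 in the longer and 6 in the shorter stretch. Genes of at least 20 regulators are in most lists by construction, and Orphan42 listed 20.2% of all listed genes. MYBR3 listed all 51 (100%) and bHLH92 92.2%. Among others, EREB115, bHLH47, NAC109 and Zm00001d033859, all with shorter lists, also lacked several of the 51. So did G2, which has a longer list and libraries in the Orphan42 batch. Zm00001d036946 and Zm00001d021935, listed for all 23 regulators, stood in rows 63 and 986 of the longer Orphan42 stretch. Zm00001d008793 and Zm00001d007381, listed for 22, stood in its rows 92 and 346. Zm00001d007027 and Zm00001d017139 were listed for 21 regulators each but not for Orphan42, and they were the genes with the most regulators outside its list. The other regulator without Zm00001d007027 was NAC109, and the other without Zm00001d017139 was GLK44, both with shorter lists. None of these 6 identifiers has a name in the table or the reference.

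By family, the lists were compared for genes that all named members shared. Of 93 genes listed for all 4 NAC factors, 50 (53.8%) were Orphan42 targets. The share was 49.5% for genes of all 5 MYB factors (103 of 208) and 49.7% for genes of both bHLH factors (517 of 1041). It was 43.0% for GLK44 and G2 together (497 of 1157), and lowest, 37.8%, for both WRKY factors (1113 of 2947). All these shares exceed the 20.2% of all listed genes that Orphan42 listed, and genes with several regulators are often listed by construction.

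The 4002 rows of Orphan42 fall into 2 stretches of the authors' deposited table, 1 of 1438 and 1 of 2564 rows, which share 0 genes. The submitters do not say which condition or direction, if any, a stretch stands for. The stretches differed in breadth. Targets in the shorter had a median of 5 other regulators (percentiles 25 and 75 at 2 and 8), and those in the longer a median of 8 (4 and 12). Of the shorter stretch 83 targets (5.77%) had no other regulator, against 80 (3.12%) of the longer. At least 11 other regulators listed 15.6% of the shorter and 30.7% of the longer. Each of the 22 other lists covered a larger share of the longer stretch than of the shorter. The gap in percentage points was widest for HB6 (52.5% against 37.0%) and WRKY107 (52.7% against 38.9%), and narrowest for the short lists Zm00001d033859 (8.0% against 6.19%) and NAC109 (7.06% against 4.73%).

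**Figure D4:**
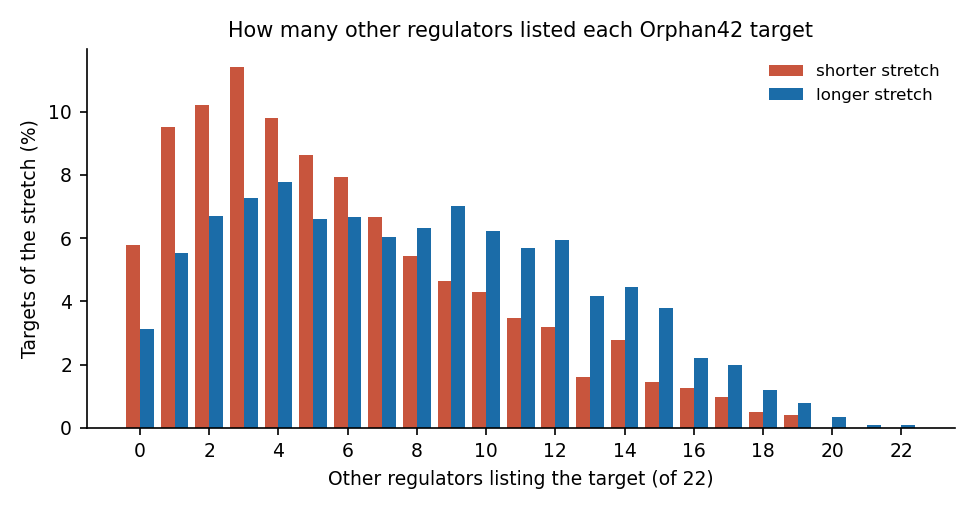
Percentage of the targets of each Orphan42 stretch (y axis) by the number of other regulators that listed the target (x axis, 0 to 22). Targets of the shorter stretch gather at low numbers, with a median of 5, and those of the longer reach higher, with a median of 8.

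The shorter stretch holds 35.9% of the Orphan42 list. All regulators not known to share the batch are counted here as outside it, the 3 of unknown batch included. Over the 34 stretches of these regulators, the part of the shared genes that lay in the shorter stretch was 17.7% to 36.8%, with a median of 29.1%. The highest was the first stretch of HB6 (36.8%), and the lowest the second of bHLH92 (17.7%, 33 of 186 shared genes). For the 14 such regulators with 2 stretches, the share of shared genes in the first stretch differed between the Orphan42 stretches by -11.7 (MYB56) to 14.7 (NAC5) percentage points. Within the batch, the 2 EREB115 stretches went opposite ways. The first, of 196 rows, had 73 genes in the shorter Orphan42 stretch and 24 in the longer, so 75.3% of its shared genes lay in the shorter. The second, of 2548 rows, had 313 and 925, or 25.3% in the shorter. For the 4 stretches of G2 the share was 44.0%, 28.9%, 24.1% and 33.9%. G2 also had libraries in batch 20210523, and which batch each of its stretches rests on is not stated. The first EREB115 and the first G2 stretch thus lay above the range outside the batch, and the other 4 within it. These lists may have empty vector libraries in common with Orphan42, whose part in the shares was not tested.

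Within each stretch, targets in early rows had more regulators. In the longer stretch the median number of other regulators went from 11 in the first of 5 near-equal parts of the rows through 9, 7 and 6 to 4 in the last. In the shorter it was 7 in the first part, 5 in the next and 4 in each of the other 3. Targets of no other regulator were few at the start and more frequent at the end. In the longer stretch they numbered 4 of 512 in the first part and 42 of 513 in the last. In the shorter they numbered 4 of 287 and 33 of 288. Spearman's rho between row and number of other regulators, across targets, was -0.42 in the longer and -0.22 in the shorter stretch. All 42 stretches in the table had a negative rho, from -0.57 to -0.09 with a median of -0.34, so the decline is general. Targets share libraries and are not independent, and these values carry no p.

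**Figure D5:**
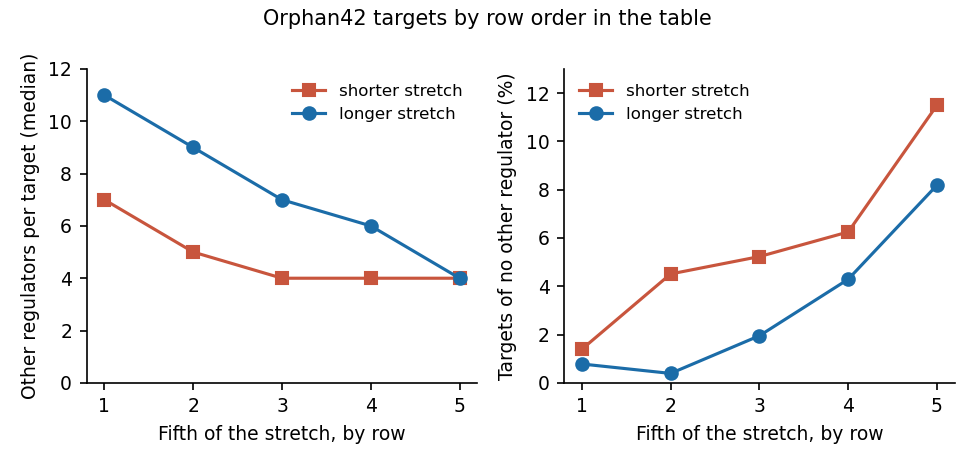
Median number of other regulators per target (left panel, y axis) and percentage of targets listed for no other regulator (right panel, y axis), for 5 near-equal parts of the rows of each Orphan42 stretch in order (x axis). The median falls from 11 to 4 in the longer stretch and from 7 to 4 in the shorter, while the percentage rises to 8.19% and 11.5% in the last part.

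The 1 target with a name in the reference table was MIR171h, a gene for a microRNA of the miR171 family, which in plants acts on messenger RNAs of GRAS transcription factors. It stood in row 1031 of the shorter stretch of 1438 rows. In the authors' deposited table, MIR171h had 8 regulators, the other 7 being NAC61, MYB121, WRKY107, NAC5, G2, bHLH92 and GLK44. The Orphan42 list did not hold the other 4 microRNA genes of the table, MIR171i, MIR169l, MIR396a and MIR397a.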

How the data were processed

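Protoplast libraries were made with the Lexogen QuantSeq kit, which reads 3' ends of messenger RNA, per the labels' protocols. The submitters' processing notes name featureCounts, edgeR and the build B73 RefGen_v4, without versions. Thresholds, library depth, how the authors merged plusN with minusN and the batches, and whether replicates were separate preparations are not stated. The authors deposited 1 table of 94256 rows with text identifiers of regulators and targets, per the file header, and no other values. Distinct edges were used (92485). Identifiers in sample titles matched 20 of 23 regulators to a plasmid and batch.

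From the table, list lengths, shared genes, the number of other regulators per target, stretches of consecutive rows of 1 regulator and rows within a stretch were counted with Python 3.11.15, pandas 2.3.3, numpy 2.4.6, scipy 1.17.1 and matplotlib 3.10.9. Counting was tested on a made-up table with known answers. The planned model on counts and the gene lists by description were not run, since the table has no counts and 1 target matched the reference. Named genes were the regulators, the microRNA genes and the genes with the most regulators; the 2 often listed genes outside the list were chosen after their values were seen. The members and lists were chosen with earlier results of these data known.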

Additional observations from a re-analysis of the deposited data

How the results depend on the processing

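Counting rows in place of distinct edges left 4002 targets. By construction the stretches alone gave 1438 and 2564. Targets of Orphan42 alone numbered 163, 214 without EREB115 and G2, 179 without the unmatched regulators, and 163 without the Zm00001d003176 stretch whose genes are all MYB56 targets. Leaving out any 1 other list gave 163 to 218. The median of 6 other regulators held without the lists of the batch and without that stretch. Over the 22 other lists, the median share of Orphan42 targets was 35.0%. It was 35.8% as a share of the other list, 28.2% for the shorter stretch and 38.8% for the longer. The median Jaccard index was 0.207, a different scale. Orphan42 listed 55.3% of genes of at least 12 regulators and, in an alternative chosen after seeing the data, 49.6% of genes in at least 7 of 10 lists of other batches, a different set of genes.

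Gene lists with either denominator were not run, for want of names, nor was leaving out replicates. No paired analysis was possible because edges are identifiers and libraries have no values. Sequencing depth, which limits how many genes are listed, is unknown here.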

Other observations

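Row order was also set against that of the other lists. For genes of the longer Orphan42 stretch shared with 34 stretches of regulators outside the batch, each with at least 50 shared genes, Spearman's rho between the 2 row orders was -0.18 to 0.33, with a median of 0.15. The 3 regulators of unknown batch were counted as outside it, and the lowest value was with 1 of them, Zm00001d033859. The highest, 0.33, was over 545 genes shared with a WRKY107 stretch of 2110 rows. For the shorter stretch the range over 30 stretches was -0.16 to 0.14, with a median of 0.04. With EREB115, of the same batch, rho for the shorter stretch reached 0.28 over 313 genes and 0.15 over 73 genes. With the 4 stretches of G2, in their order, it was 0.23, 0.0, 0.11 and -0.07. G2 also had libraries in batch 20210523, and which of its stretches rest on which batch is not stated. For the longer stretch rho was 0.3 over 925 genes for EREB115 and -0.09 to 0.08 for G2. Which empty vector libraries the lists of the batch rest on is not stated, and the part of common ones in these values was not tested. The points are genes that share libraries, and the submitters do not explain the order.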
